A study of Mus musculus with 8 samples.

Results

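The genes described here build the tight junction and the apical domain of epithelial cells: 37 genes of the 46517 with a deposited count, chosen by name from the claudins, the other tight junction proteins and the Par, Crumbs and Lgl polarity families. All 37 were found in the count table. They comprise 14 claudins, 3 MARVEL proteins (occludin, tricellulin and MARVELD3) and 4 genes placed here as junctional adhesion molecules (the 3 JAM genes and Epcam). The rest are 6 cytoplasmic scaffolds and 10 polarity genes. The filter on low counts kept 35 of the 37 for testing. Cldn19, with 0 to 8 reads per library, and Cldn23, with 2 to 5 reads per library, were left out of the test.

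Tight junctions seal the space between neighbouring epithelial cells. Claudins form the strands and set which ions and solutes pass, occludin and tricellulin lie in the same strands, and ZO proteins, cingulins and MAGI proteins tie the strands to the actin cytoskeleton. The Par complex (PAR3, PAR6 and atypical protein kinase C) and the Crumbs proteins define the apical side, and the Lgl proteins act on the basolateral side. In the adult epididymis these junctions form the blood-epididymis barrier, which keeps the luminal fluid around the sperm apart from the blood. The Wolffian duct is the embryonic tube that becomes the epididymis, and PTK7 is a transmembrane pseudokinase of planar cell polarity, which orients cells within the plane of the sheet and is a separate system from the apical-basal polarity of the genes described here.

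Epididymal ducts were dissected from mouse embryos at E18.5 and total RNA was sequenced in 8 libraries. The 4 control libraries (control 1, 3, 4 and 6) had the genotype Ptk7 +/flox; T-Cre; mT/mG. The 4 libraries labelled Ptk7 cKO (1, 2, 4 and 5) had the genotype Ptk7 Xst87/flox; T-Cre; mT/mG, where Xst87 is a disrupted Ptk7 allele. Both groups thus carried a floxed Ptk7 allele, the T-Cre transgene and the mT/mG reporter of membrane-bound fluorescent proteins, and the controls carried 1 wild-type allele that could not be recombined. T-Cre uses the promoter of T (Brachyury), which is active in the early mesoderm that gives rise both to the duct epithelium and to the mesenchyme around it, so the knockout is not limited to epithelial cells. Whether each library is a different embryo or litter is not said in the labels. The p-values therefore set the group difference only against the scatter among these samples, and that scatter may be technical.

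Ptk7 itself checked the labels. It stood at 189, 112, 313 and 169 CPM (counts relative to library size, scaled by edgeR's TMM factors) in control 1, 3, 4 and 6, and at 7.33, 7.59 and 12.5 CPM in the libraries labelled Ptk7 cKO 1, 2 and 4. In the library labelled Ptk7 cKO 5 it stood at 194 CPM, which is 99.2% of the control mean and goes against the label. With all 8 libraries, Ptk7 differed by a log2 fold change of -1.82 (SE 0.95, edgeR adjusted p = 0.655). With that library left out, the value was -4.42 (SE 0.37, edgeR adjusted p = 0.00805). Total counts ranged from 24807970 to 29590547 per library. Markers of duct epithelium, among them Cdh1 (E-cadherin) and Krt7 (a simple-epithelium keratin), were present in every library, with a summed level of 1371 to 1600 TPM (counts divided by gene length and set relative to their sum in the library) in the controls and 1171 to 1713 TPM under the knockout label. Markers of mesenchyme summed to 6353 to 7441 and 6451 to 8322 TPM. In bulk samples such as these, fewer epithelial cells and less RNA per epithelial cell cannot be told apart.

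Levels between genes were compared as TPM. In the controls Epcam was the most abundant of the 37 genes, at 276 ± 19.0 TPM (SD, n = 4); EpCAM is an epithelial adhesion molecule that binds claudin-7. Next came Cldn6, a claudin typical of embryonic epithelia, at 124 ± 25.1 TPM, Cldn8, a barrier-forming claudin, at 121 ± 16.4 TPM, and Cldn11, known from Sertoli cells and myelin, at 114 ± 16.5 TPM. F11r, which encodes JAM-A, followed at 89.9 ± 3.84 TPM, then the barrier-forming claudins Cldn3 at 88.2 ± 4.31 TPM and Cldn4 at 78.6 ± 12.3 TPM. Cldn7 stood at 71.3 ± 6.10 TPM, the basolateral polarity gene Llgl1 at 64.0 ± 2.60 TPM and Cldn1, whose protein is a main barrier component in skin, at 63.8 ± 7.61 TPM. Epcam was set apart from the rest, because its lowest control value lay above the highest of Cldn6. From Cldn6 down to Jam3 each gene's control range overlapped that of the next in order, so the order of neighbours there is not resolved. Genes further apart in that stretch could be separated. For example, the lowest Cldn6 control, 97.1 TPM, lay above the highest F11r control, 93.8 TPM. At the other end, Cldn10 stood at 0.547 ± 0.190 TPM, and the genes left out of the test, Cldn23 and Cldn19, at 0.142 ± 0.0533 and 0.0647 ± 0.0501 TPM.

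**Figure D1:**
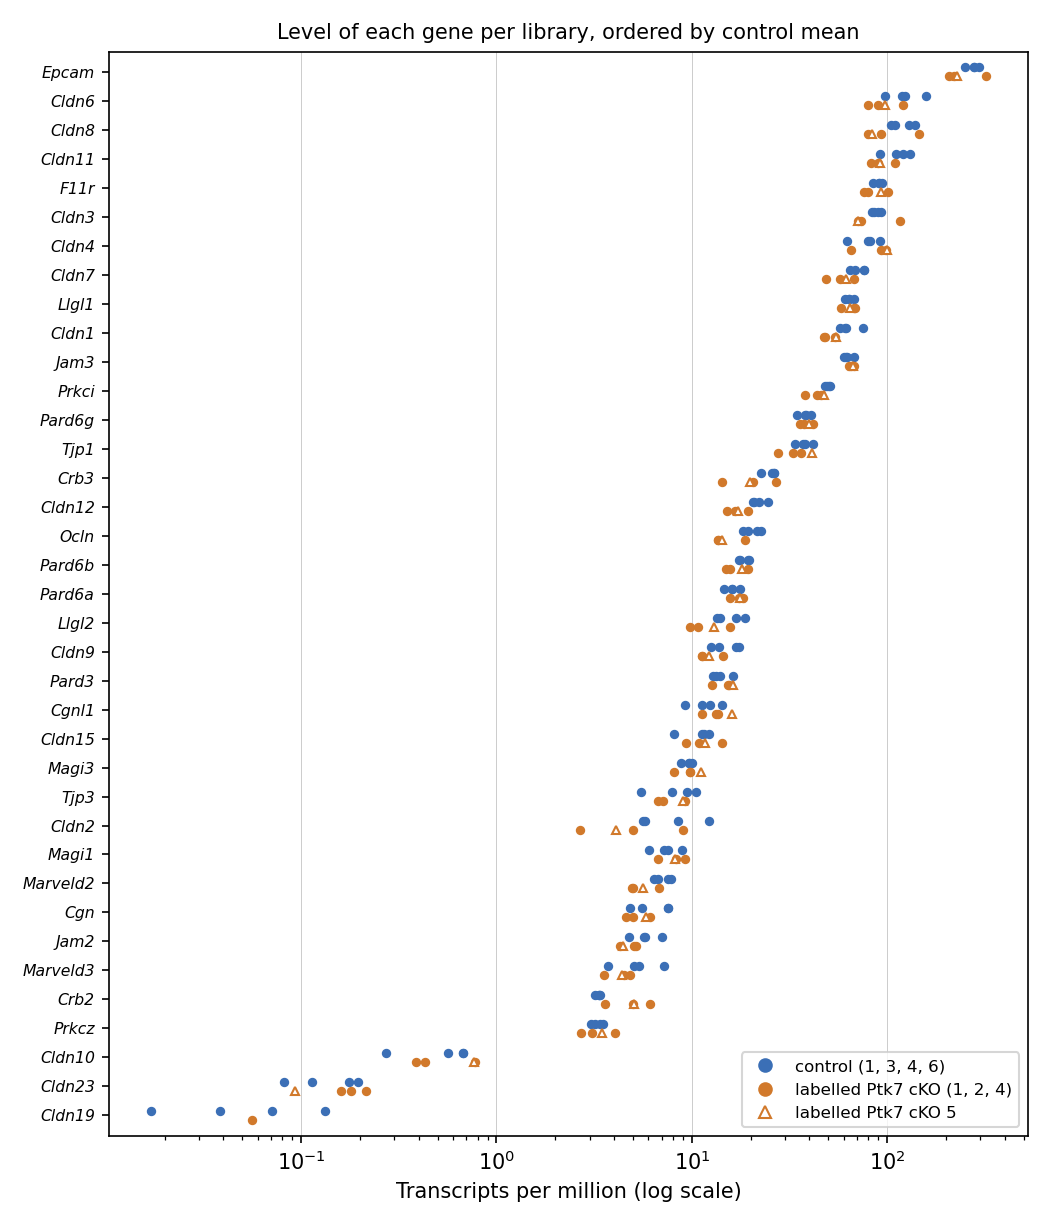
Level in TPM (log scale) of the 37 genes in each library, ordered by the control mean; blue circles are the 4 controls, orange circles the libraries labelled Ptk7 cKO 1, 2 and 4, and open triangles the library labelled Ptk7 cKO 5, and values of 0 are not drawn. Epcam leads at 276 TPM in the controls and the claudins span from Cldn6 at 124 TPM to Cldn19 at 0.0647 TPM.

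The claudin repertoire was led by 7 genes. Cldn6, Cldn8, Cldn11, Cldn3, Cldn4, Cldn7 and Cldn1 made up 91.1% to 93.0% of the claudin TPM in every library. The 14 claudins summed to 712, 779, 712 and 666 TPM in control 1, 3, 4 and 6, and to 549.7, 765, 558 and 608 TPM in the libraries labelled Ptk7 cKO 1, 2, 4 and 5. Only the library labelled Ptk7 cKO 2 reached the control range. Each claudin's share of that sum overlapped between the groups. Cldn6 took 17.2% ± 2.34 of it in the controls and 15.6% ± 0.945 under the knockout label (SD, n = 4 each), and Cldn4 took 11.05% ± 2.14 and 14.5% ± 2.45. The pore-forming claudins were minor components: Cldn15 took 1.51% ± 0.255 of the summed TPM of the 14 in the controls, Cldn2 1.13% ± 0.464 and Cldn10 0.0776% ± 0.0299.

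Between the groups, none of the 35 tested genes passed an adjusted p of 0.05 in edgeR's quasi-likelihood test, and neither did any of the 16469 genes tested (0.0%). At an unadjusted p under 0.05, 11 of the 35 were lower under the knockout label, against 4.87% of all genes tested, and 1 was higher, against 3.5%. In 5 genes, Ocln, Cldn12, Cldn1, Cldn7 and Prkci, all 4 libraries of the knockout label lay below all 4 controls, against 3.11% of all genes, and in 1 gene, Crb2, all 4 lay above, against 2.65%. DESeq2 called 3 of them at an adjusted p of 0.05, Ocln and Cldn12 as lower and Crb2 as higher, against 1.2% of the genes it tested. The median log2 fold change was -0.12 over the 35 genes, with 22 below 0 and 13 above, and 0.01 over all genes tested. Leaving out the library labelled Ptk7 cKO 5, 7 genes were lower and 1 higher at an unadjusted p in edgeR (5.0% and 3.74% of all genes), and DESeq2 called 1, Crb2 (1.19% of all genes). The count of lower genes was also 7 without the library labelled Ptk7 cKO 1, that labelled Ptk7 cKO 4, or control 4.

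**Figure D2:**
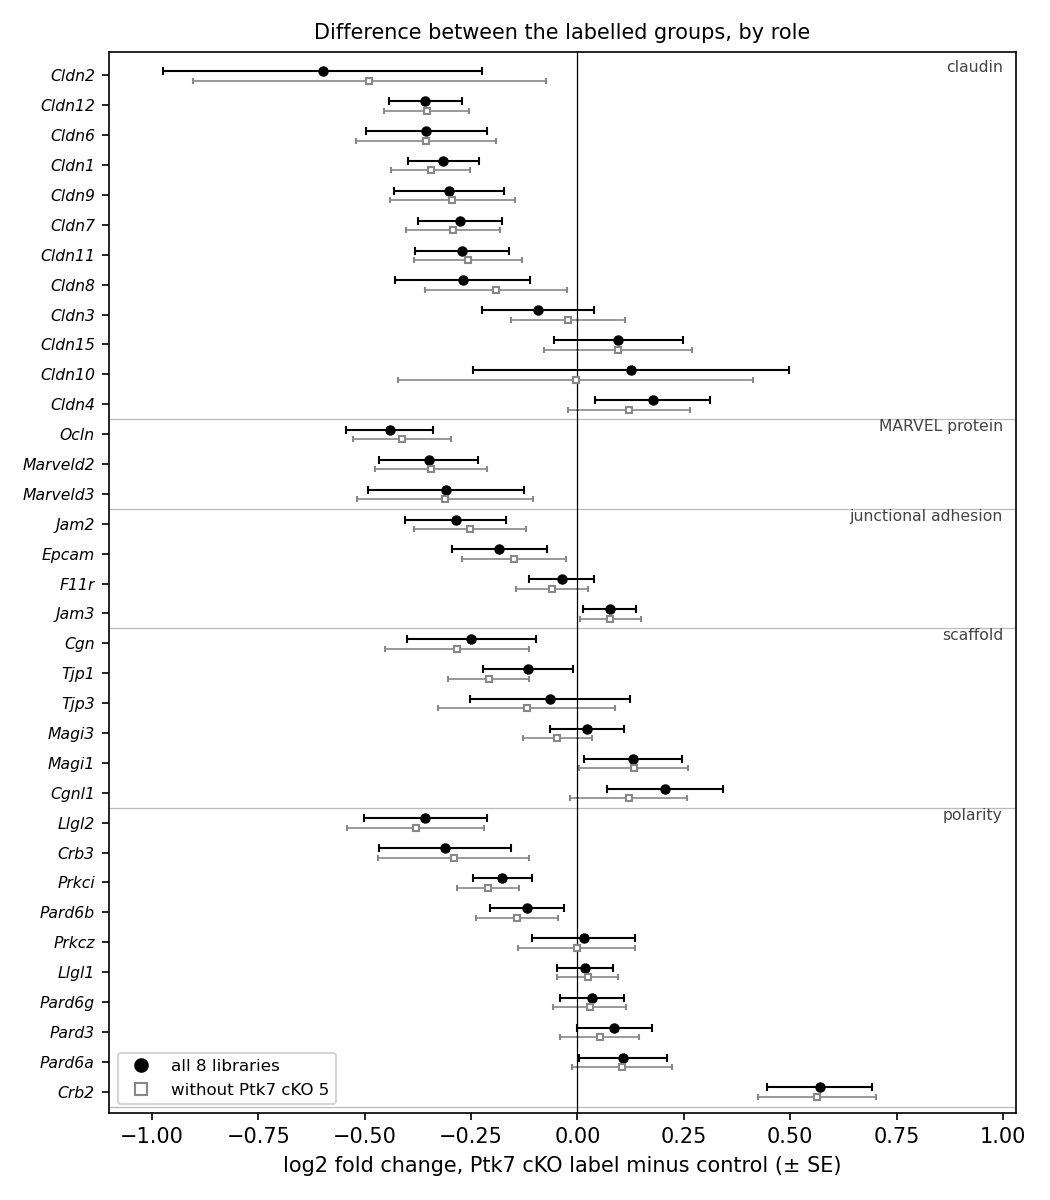
log2 fold change of the knockout label minus control (edgeR, ± SE) for the 35 tested genes, grouped by role; filled circles use all 8 libraries and open squares leave out the library labelled Ptk7 cKO 5. The claudins and MARVEL proteins lie mostly left of 0 (medians -0.27 and -0.35), the scaffolds around 0 (median -0.02), and Crb2 has the highest value (0.57).

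All 3 MARVEL proteins among the 37 genes had a log2 fold change below 0 (median -0.35). At an unadjusted p under 0.05, 2 of these 3 were lower, against 4.87% of all genes tested. A further MARVEL gene, Marveld1, is not among the 37 genes and had a log2 fold change of 0.10 (SE 0.07). Ocln (ENSMUSG00000021638, GRCm38 chr13:100496507-100552718, minus strand) encodes occludin, the tetraspan protein of tight junction strands. It stood at 39.6, 44.9, 43.6 and 37.3 CPM in control 1, 3, 4 and 6, and at 29.6, 36.1, 27.5 and 28.6 CPM in the libraries labelled Ptk7 cKO 1, 2, 4 and 5. All 4 controls were above all 4 knockout-label libraries, although control 6 and the library labelled Ptk7 cKO 2 were close. The means were 41.4 ± 3.54 and 30.5 ± 3.87 CPM (SD, n = 4 each), with a log2 fold change of -0.44 (SE 0.10, edgeR adjusted p = 0.217; DESeq2 adjusted p = 0.0199). Without the library labelled Ptk7 cKO 5 the log2 fold change was -0.41 and the DESeq2 adjusted p 0.0929. Marveld2 encodes tricellulin, which seals the points where 3 cells meet, and lies on the same strand 43238 bases from Ocln. It stood at 11.03, 12.6, 12.1 and 10.5 CPM in the controls and at 8.79, 10.5, 8.02 and 8.997 CPM under the knockout label. Only the library labelled Ptk7 cKO 2 reached the lowest control. Its log2 fold change was -0.35 (SE 0.12, edgeR adjusted p = 0.417). Marveld3 ranged from 5.76 to 11.3 CPM in the controls and from 6.02 to 7.25 CPM under the knockout label, and its log2 fold change of -0.31 (SE 0.18, edgeR adjusted p = 0.692) was within that spread.

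Of the 12 claudins tested, 9 had a log2 fold change below 0 and 3 above, with a median of -0.27. At an unadjusted p under 0.05, 6 were lower and none higher, against 4.87% and 3.5% of all genes tested. Without the library labelled Ptk7 cKO 5 the median of the 12 was -0.28 and 3 of them were lower at this threshold, against 5.0% of all genes. Cldn12 encodes a claudin that lacks the PDZ-binding tail by which most claudins attach to ZO proteins. Its values were 42.6, 49.1, 44.8 and 42.0 CPM in control 1, 3, 4 and 6 and 36.3, 37.7, 30.7 and 34.6 CPM in the libraries labelled Ptk7 cKO 1, 2, 4 and 5. The groups did not overlap, and the log2 fold change was -0.36 (SE 0.09, edgeR adjusted p = 0.232; DESeq2 adjusted p = 0.0348, and 0.107 when Ptk7 cKO 5 was left out). Cldn1 stood at 95.8, 115, 96.2 and 90.5 CPM in the controls and at 79.9, 79.9, 75.0 and 84.9 CPM under the knockout label. These groups did not overlap either, and the log2 fold change was -0.32 (SE 0.08, edgeR adjusted p = 0.295; DESeq2 adjusted p = 0.0856). Cldn7, the partner of EpCAM, stood at 72.2, 62.8, 71.0 and 60.5 CPM in the controls and at 57.8, 59.8, 45.5 and 56.9 CPM under the knockout label (log2 fold change -0.28, SE 0.10, edgeR adjusted p = 0.466). Between the groups, the nearest values were those of control 6 and of the library labelled Ptk7 cKO 2.

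Cldn6 and Cldn9 encode closely related proteins and lie 137 bases apart on chromosome 17, on opposite strands. Whether reads of one were assigned to the other was not examined. Cldn6 stood at 86.5, 112, 88.5 and 70.7 CPM in control 1, 3, 4 and 6 and at 70.0, 82.6, 57.2 and 70.1 CPM under the knockout label, with a log2 fold change of -0.36 (SE 0.14, edgeR adjusted p = 0.522). Control 6 lay within the knockout-label range. With 1 library left out, the log2 fold change of Cldn6 ranged from -0.45 (without control 6) to -0.23 (without control 3). Cldn9 had a log2 fold change of -0.30 (SE 0.13, edgeR adjusted p = 0.569), and its control 6 likewise overlapped the knockout label. Ptk7 is on the same chromosome, but no member lies within 5 Mb of it; the nearest, Crb3, is 10.4 Mb away.

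Other abundant claudins differed by less or not in that direction. Cldn11 stood at 99.9, 116, 82.6 and 109 CPM in the controls and at 87.3, 94.0, 74.2 and 82.1 CPM under the knockout label (log2 fold change -0.27, SE 0.11, edgeR adjusted p = 0.530). Cldn11 is known from Sertoli cells, whose markers were listed together with those of germ cells. This joint list summed to 28.3 to 45.0 TPM in the controls and 22.3 to 36.5 TPM under the knockout label. In it 7 of 10 genes were below 1 TPM, and the Sertoli hormone gene Amh never passed 0.331 CPM. Cldn8 stood at 119, 155, 146 and 125 CPM in the controls and at 97.1, 157, 105 and 94.1 CPM under the knockout label. The library labelled Ptk7 cKO 2 thus had the highest value of all 8, and the log2 fold change was -0.27 (SE 0.16, edgeR adjusted p = 0.692). Cldn3 showed the same library on top, at 66.6 CPM against 42.5 to 46.5 in the other knockout-label libraries and 51.0 to 56.9 in the controls (log2 fold change -0.09, SE 0.13). Cldn4 lies 39279 bases from Cldn3 and stood the other way, at 80.4, 53.3, 70.6 and 70.0 CPM in the controls and 61.2, 81.8, 80.6 and 86.4 CPM under the knockout label. Its groups overlapped, with a log2 fold change of 0.18 (SE 0.13, edgeR adjusted p = 0.748), and the sign depended on the libraries used, being -0.10 over the 4 libraries that share a number. Cldn2, a cation- and water-permeable pore, had the lowest log2 fold change of the 35 genes, -0.60, but with an SE of 0.37. Its controls already spanned 8.82 to 19.7 CPM and the knockout-label libraries 4.24 to 15.5 CPM.

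Among the adhesion molecules, Epcam stood at 275, 287, 271 and 247 CPM in the controls and at 218, 298, 215 and 221 CPM in the libraries labelled Ptk7 cKO 1, 2, 4 and 5. Of the latter, 3 lay below every control and the library labelled Ptk7 cKO 2 above every control, so the log2 fold change of -0.18 (SE 0.11, edgeR adjusted p = 0.695) did not exceed the spread. F11r differed little, at 109 to 119 CPM in the controls and 102 to 123 CPM under the knockout label (log2 fold change -0.04, SE 0.08). Jam2 encodes JAM-B, which endothelial cells also make. It stood at 16.4, 19.5, 15.9 and 13.6 CPM in the controls and at 13.0, 13.6, 14.6 and 12.4 CPM under the knockout label (log2 fold change -0.29, SE 0.12, edgeR adjusted p = 0.544). Endothelium markers summed to 216 to 270 TPM in the controls and 210 to 296 TPM under the knockout label, and none of the 10 had an unadjusted p under 0.05. Jam3, which encodes JAM-C, had a log2 fold change of 0.08 (SE 0.06).

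The cytoplasmic scaffolds were evenly placed, with 3 of 6 below 0 and 3 above, a median log2 fold change of -0.02 and no unadjusted p under 0.05. Tjp1, which encodes ZO-1, the main link from claudins and occludin to actin, stood at 135, 145, 129.8 and 119.9 CPM in the controls and at 105, 111, 127 and 145 CPM in the libraries labelled Ptk7 cKO 1, 2, 4 and 5. Its log2 fold change was -0.12 (SE 0.11) over all libraries and -0.21 without the library labelled Ptk7 cKO 5. Cgn (cingulin) and its paralogue Cgnl1 (paracingulin) had log2 fold changes of -0.25 (SE 0.15) and 0.21 (SE 0.14). Magi1, Magi3 and Tjp3 (ZO-3) lay between those values.

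Of the 10 polarity genes, 4 had a log2 fold change below 0 and 6 above, with a median of 0.02. An unadjusted p under 0.05 was reached by 2 lower genes, Prkci and Llgl2, and by 1 higher gene, Crb2. Over all genes tested the shares were 4.87% lower and 3.5% higher. Prkci encodes the iota form of atypical protein kinase C, the kinase of the Par complex. It was the steadiest of the 37 genes in the controls, at 129, 129.5, 136 and 135 CPM, and stood at 109.7, 111, 122 and 125 CPM in the libraries labelled Ptk7 cKO 1, 2, 4 and 5. All 4 of these lay below the lowest control, and the log2 fold change was -0.18 (SE 0.07, edgeR adjusted p = 0.512). Llgl2, the Lgl gene of epithelia, stood at 39.6, 30.8, 43.3 and 32.6 CPM in the controls and at 26.8, 34.6, 22.8 and 29.98 CPM under the knockout label. Its groups overlapped in the library labelled Ptk7 cKO 2 (log2 fold change -0.36, SE 0.14, edgeR adjusted p = 0.526). Its paralogue Llgl1 was level, at 141 to 157 CPM in the controls and 146 to 158 CPM under the knockout label (log2 fold change 0.02, SE 0.07). Crb3, the small Crumbs protein of epithelia, had a log2 fold change of -0.31 (SE 0.16, edgeR adjusted p = 0.636), with the lowest value, 10.7 CPM, in the library labelled Ptk7 cKO 4. The partners Pard3, Pard6a, Pard6b, Pard6g and Prkcz had log2 fold changes between -0.12 and 0.11.

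Crb2 went the other way from Crb3. It encodes a large Crumbs protein known from retina, gastrulating embryos and kidney podocytes, and was a low-level gene here, at 3.32 ± 0.0933 TPM in the controls (SD, n = 4). Its values were 10.9, 10.1, 10.8 and 10.9 CPM in control 1, 3, 4 and 6 and 12.5, 18.8, 16.1 and 16.0 CPM in the libraries labelled Ptk7 cKO 1, 2, 4 and 5. The controls were nearly equal and all 4 knockout-label libraries lay above them, the library labelled Ptk7 cKO 1 by the least. The means were 10.7 ± 0.393 and 15.8 ± 2.58 CPM (SD, n = 4 each), and the log2 fold change was 0.57 (SE 0.12, edgeR adjusted p = 0.192). DESeq2 called Crb2 with all libraries (adjusted p = 0.00717) and again when the library labelled Ptk7 cKO 5 was left out (adjusted p = 0.0359). Crb2 shares 113 exon bases with Dennd1a on the opposite strand, whose log2 fold change was -0.05 (edgeR adjusted p = 0.890). Several marker lists of other cell types differed between the labels. Over all genes tested, 4.87% were lower and 3.5% higher at an unadjusted p under 0.05. Summed levels were higher under the knockout label for mesothelium (322 to 401 TPM in the controls, 383 to 514 TPM under the knockout label, with 5 of 8 tested genes higher at an unadjusted p under 0.05) and for neurons and Schwann cells (29.7 to 38.7 and 45.7 to 65.7 TPM, 4 of 9 higher). Multiciliated cell markers also summed higher, at 27.6 to 39.5 TPM in the controls and 41.0 to 43.2 TPM under the knockout label. Of the 7 tested, 1 was lower and 1 higher, with a median log2 fold change of -0.15. Erythroid markers were uneven between libraries (1991 to 5616 and 3461 to 10061 TPM, 2 of 7 higher). Lower were smooth muscle markers (3557 to 4287 and 2789 to 3606 TPM, 6 of 10 lower and 1 higher) and the scarce Leydig and adrenal markers (4.45 to 6.26 and 2.74 to 4.57 TPM, 2 of 3 tested lower). Kidney markers summed to 2.69 to 4.43 and 2.09 to 3.20 TPM, with the podocyte gene Nphs1 at 0 to 0.0735 CPM. The part of these cell types in the Crb2 difference was not tested.

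**Figure D3:**
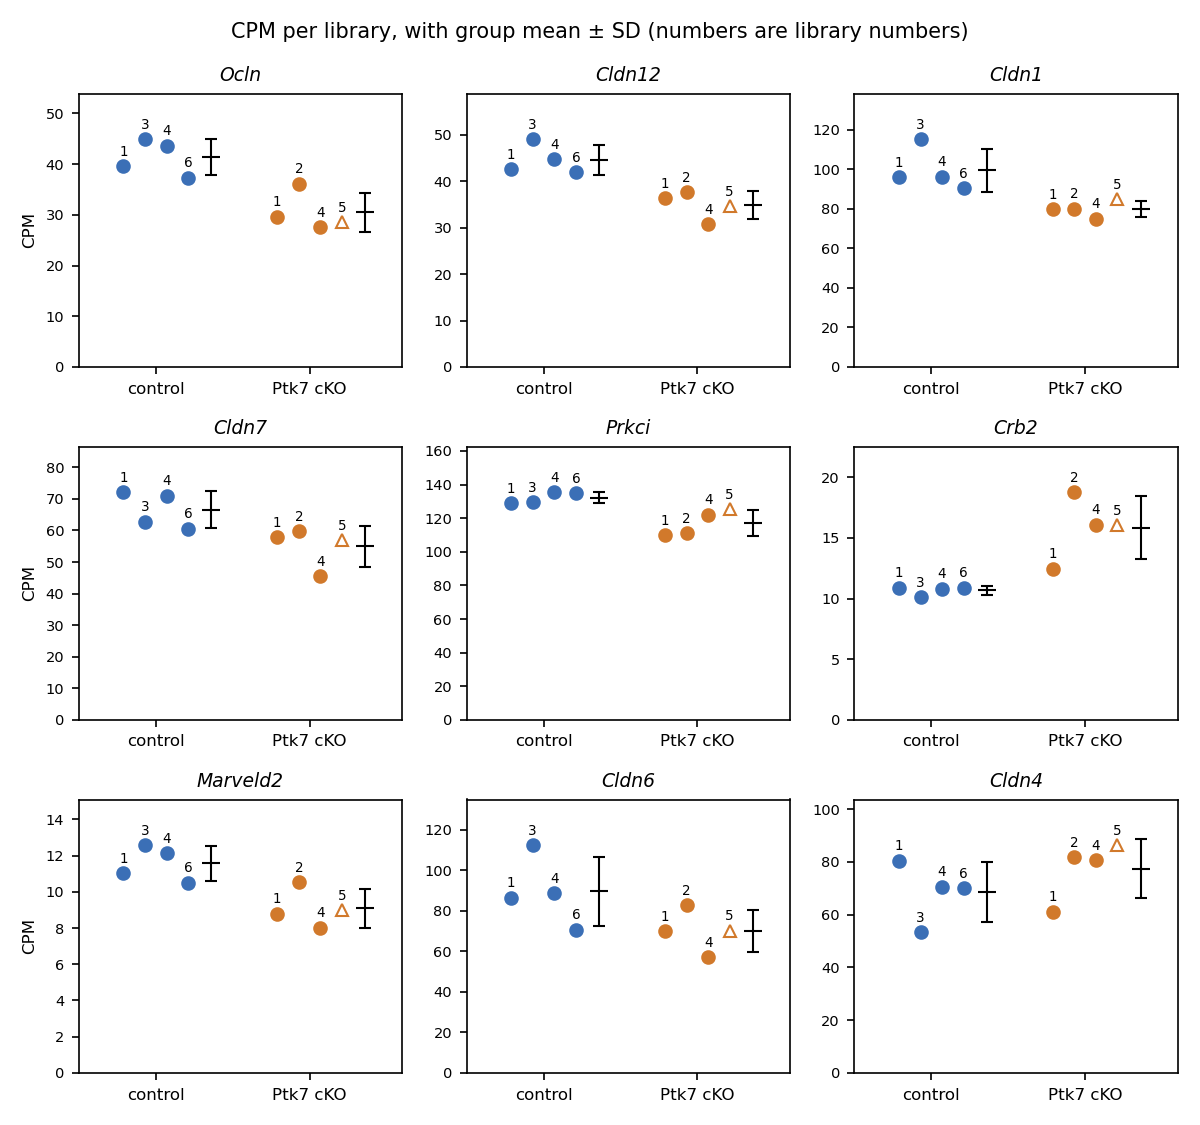
CPM per library (y axes start at 0) for 9 genes, with the library number above each point and the group mean ± SD (n = 4) as a black bar; blue is control, orange the knockout label, and the open triangle is the library labelled Ptk7 cKO 5. Ocln, Cldn12, Cldn1, Cldn7 and Prkci are lower and Crb2 is higher in all 4 knockout-label libraries, while Marveld2, Cldn6 and Cldn4 overlap between the groups.

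The promoters of Ocln, Marveld2, Cldn6 and Crb2 are printed because these genes are the MARVEL pair with the lowest unadjusted p, the most abundant claudin, and the gene with the highest log2 fold change of the 35. RefSeq promoter sequences (GRCm38.p6) were matched for 29 of the 37 genes. Each line gives 250 bases before and 30 bases from the start site on, in the direction of the gene, and capitals mark the E-box letters CAGGTG, the site bound by SNAIL and ZEB repressors of epithelial genes, searched on both strands (CACCTG on the other). The lines are chr13:100552689-100552968, minus strand, for Ocln, chr13:100616942-100617221, minus strand, for Marveld2, chr17:23679115-23679394, plus strand, for Cldn6, and chr2:37775999-37776278, plus strand, for Crb2.
Ocln: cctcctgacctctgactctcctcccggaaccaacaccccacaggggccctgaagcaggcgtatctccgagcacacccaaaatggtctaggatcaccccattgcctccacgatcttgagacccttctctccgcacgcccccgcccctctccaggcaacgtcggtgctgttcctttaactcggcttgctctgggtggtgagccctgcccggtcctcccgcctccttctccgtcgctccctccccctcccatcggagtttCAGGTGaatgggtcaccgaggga
Marveld2: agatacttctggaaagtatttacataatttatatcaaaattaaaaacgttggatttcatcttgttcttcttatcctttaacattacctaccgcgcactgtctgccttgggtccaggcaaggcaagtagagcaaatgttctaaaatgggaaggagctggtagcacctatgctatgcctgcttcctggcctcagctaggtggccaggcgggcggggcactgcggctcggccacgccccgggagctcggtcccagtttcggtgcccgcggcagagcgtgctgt
Cldn6: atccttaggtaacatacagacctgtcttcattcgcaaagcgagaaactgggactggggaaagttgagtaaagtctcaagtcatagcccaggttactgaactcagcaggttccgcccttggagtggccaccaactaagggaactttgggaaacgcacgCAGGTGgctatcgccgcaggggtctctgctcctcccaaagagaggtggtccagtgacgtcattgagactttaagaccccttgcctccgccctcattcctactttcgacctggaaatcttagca
Crb2: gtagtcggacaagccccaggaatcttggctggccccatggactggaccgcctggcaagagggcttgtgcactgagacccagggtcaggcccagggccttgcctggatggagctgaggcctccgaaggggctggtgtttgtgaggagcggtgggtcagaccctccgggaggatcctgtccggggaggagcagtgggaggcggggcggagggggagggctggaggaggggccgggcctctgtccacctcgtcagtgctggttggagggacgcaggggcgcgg

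Ocln and Marveld2 have 2 RefSeq promoters each, and the first is printed. In the printed windows Ocln had 1 match, 7 bases past the start site, Cldn6 had 1 match, 93 bases before it, and Marveld2 and Crb2 had none. The second Ocln promoter, which overlaps the first, had matches 213 and 68 bases before its own start site, and the second Marveld2 promoter had 1 match 16 bases past its start. Over the 250 bases before the start site, 12 of the 29 matched genes (41.4%) held CAGGTG or CACCTG in at least 1 promoter, against 18.9% of the genes tested that have a promoter sequence and 19.4% of all genes in the table. Besides Ocln and Cldn6 these were Cldn4, Cldn7, Crb3, Epcam, F11r, Magi1, Pard3, Pard6b, Prkcz and Tjp3, which include genes with log2 fold changes on either side of 0. Cldn12, Cldn1 and Prkci, which were lower without overlap, had no match in this window. The same letters can mark the end of an exon at a splice site. Among these 12 genes, a match before the start site coincided with an annotated exon end in 3, Cldn7, Ocln and Crb3. The GC box GGGCGG, which reads CCGCCC on the other strand and is found in many promoters, was present in 25 of the 29 genes (86.2%), against 62.8% of the tested genes. The grainyhead site AACNGGTT, read on the other strand as AACCNGTT and named for transcription factors of epithelial differentiation, was present in 1 of them, Cgn (3.45%), against 1.93% of the tested genes. The 29 genes had 43 promoters and the 11526 tested genes with a promoter sequence had 14738. The 29 thus had more promoters per gene in which to match, so the shares per gene are not fully alike. A match describes the letters only, and factor binding was not measured.

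The libraries within the knockout label differed among themselves in these genes. The library labelled Ptk7 cKO 2 was the highest of the 4 in 20 of the 35 tested genes (57.1%), against 21.5% of all genes tested, and in 24 of the 30 duct epithelium markers (80%). The library labelled Ptk7 cKO 4 was the lowest of all 8 in 15 of the 35 (42.9%), against 14.9% of all genes, and in 14 of the 30 epithelium markers (46.7%). Among the controls, control 3 stood out over all genes, as the lowest of all 8 in 26.6% and the highest in 24.4%. In the 35 genes it was the lowest in 10 (28.6%) and the highest in 8 (22.9%). Without the library labelled Ptk7 cKO 2, 13 genes were lower without overlap, against 4.85% of all genes at these group sizes, and 1 was higher, against 4.18%. That library was singled out by its high values in these same genes, so leaving it out raises the count of lower genes by construction. With any other library left out, 5 to 9 genes were lower without overlap, against 4.03% to 5.88% of all genes. A score for the duct epithelium, the mean over its 30 markers of log2(CPM + 1) centred on each gene's mean, was 0.14, 0.12, 0.24 and -0.04 in control 1, 3, 4 and 6 and -0.16, 0.07, -0.28 and -0.08 in the libraries labelled Ptk7 cKO 1, 2, 4 and 5. The median of the 35 genes on the same scale was 0.10, 0.03, 0.11 and -0.01 in the controls and -0.10, 0.03, -0.20 and -0.01 under the knockout label. Both measures were highest in control 4 and lowest in the library labelled Ptk7 cKO 4. At an unadjusted p under 0.05, 15 of the 30 epithelium markers were lower and 2 higher, against 4.87% and 3.5% of all genes tested. Their median log2 fold change was -0.34, and their part in the lower values of the claudins and MARVEL proteins was not tested.

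**Figure D4:**
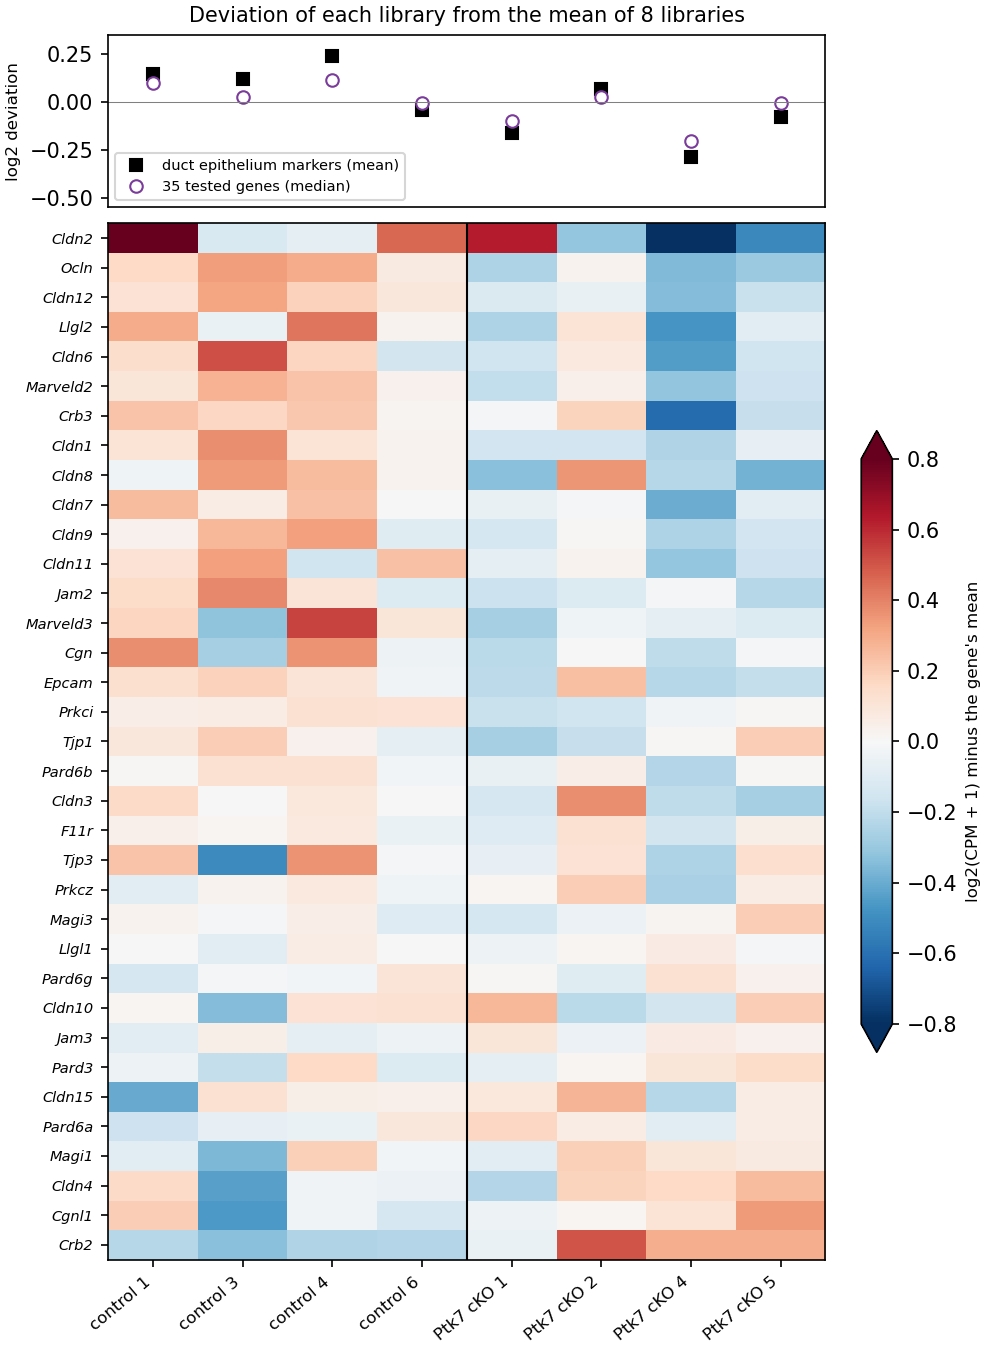
Top: mean deviation of 30 duct epithelium markers (black squares) and median deviation of the 35 tested genes (open circles) in each library, in log2 units; bottom: log2(CPM + 1) of each gene minus its mean over the 8 libraries, red above and blue below, with colours capped at 0.8 and genes ordered by their mean under the knockout label. Most rows are blue in the library labelled Ptk7 cKO 4, which was the lowest of all 8 in 15 genes, and Crb2 in the last row is red in the libraries labelled Ptk7 cKO 2, 4 and 5.

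The genes were also described relative to the epithelium score, which was subtracted from each gene in each library. Because the mean score of the knockout label minus that of the controls was -0.23, this subtraction shifts the difference of every gene upward by the same amount. An upward shift by itself gives fewer lower and more higher separations, and the score also differs between libraries of the same group. The counts on this scale therefore say nothing about the source of a difference. On this scale 1 of the 35 genes, Ocln, was lower without overlap, against 0.328% of all genes tested. Its relative values were 0.02, 0.22, 0.06 and 0.12 in control 1, 3, 4 and 6 and -0.09, -0.04, -0.07 and -0.22 in the libraries labelled Ptk7 cKO 1, 2, 4 and 5, a difference of -0.20. Cldn12, Cldn1, Cldn7 and Prkci overlapped between the groups on this scale, with differences of -0.12, -0.08, -0.05 and 0.05. Crb2, F11r, Pard3, Magi1 and Prkcz were higher without overlap, against 11.3% of all genes tested. Crb2 had the largest of these 5 relative differences, 0.75.

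Other genes of the same structures were read from a pair of lists. Of 30 other tight junction genes, 21 were tested, with a median log2 fold change of -0.01. None passed an adjusted p of 0.05 in edgeR or DESeq2. At an unadjusted p under 0.05, 1 was lower and 1 higher, against 4.87% and 3.5% of all genes tested. The lower one was Igsf5, which encodes the junctional adhesion molecule JAM4, at 6.12 to 7.29 CPM in the controls and 4.28 to 5.49 CPM under the knockout label, without overlap (log2 fold change -0.48, SE 0.13, edgeR adjusted p = 0.295). Ildr2, an angulin of tricellular contacts, was the higher one, with a log2 fold change of 0.25 (SE 0.11), while its paralogue Ildr1 had -0.34 (SE 0.18) and Ybx3, a transcription factor held at junctions by ZO-1, had 0.17 (SE 0.08). The 9 genes that were not tested had at most 5 reads in any library.

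Of 28 other polarity genes, 27 were tested, with a median log2 fold change of 0.01. In edgeR none passed an adjusted p of 0.05. At an unadjusted p under 0.05, 2 were lower and 2 higher, against 4.87% and 3.5% of all genes tested. Groups without overlap were found for 2 lower genes of the 27 (3.11% of all genes) and 3 higher genes (2.65% of all genes). Of the higher ones, Podxl and Dlg4 are described further on. Stk11, the polarity kinase LKB1, named after its values were seen, had a log2 fold change of 0.28 (SE 0.15, edgeR adjusted p = 0.671). Its control 3 stood at 58.3 CPM, against 95.0 to 104 CPM in the other controls and 106 to 113 CPM under the knockout label. Patj, a scaffold of the Crumbs complex, was lower, at 38.2 to 42.8 CPM in the controls and 30.3 to 38.1 CPM under the knockout label (log2 fold change -0.26, SE 0.08), and so was Lin7a, a further partner of that complex (log2 fold change -0.41, SE 0.15). Podxl encodes podocalyxin, a sialomucin of the free cell surface in podocytes, endothelium and mesothelium. It stood at 212, 224, 231 and 232 CPM in the controls and at 268, 327, 284 and 331 CPM in the libraries labelled Ptk7 cKO 1, 2, 4 and 5, with a log2 fold change of 0.43 (SE 0.09, edgeR adjusted p = 0.163). DESeq2 called it with all libraries (adjusted p = 0.0012) and with the library labelled Ptk7 cKO 5 left out (adjusted p = 0.0133), as the only gene of the lists that it called. Mesothelium markers were higher at an unadjusted p under 0.05 in 5 of 8 tested, with a median log2 fold change of 0.37, and their part in the Podxl difference was not tested. Dlg4, best known as the postsynaptic scaffold PSD-95, had a log2 fold change of 0.34 (SE 0.13). Its control 3 stood at 24.6 CPM, against 34.6 to 36.0 CPM in the other controls and 37.8 to 48.0 CPM under the knockout label. The neuron and Schwann cell markers given above also summed higher, and their part in the Dlg4 difference was not tested.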

How the data were processed

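The authors deposited raw counts per gene and library, with gene lengths. STAR, featureCounts and GRCm38 are named in the submitters' processing notes. Their versions, the strand setting, the handling of multi-mapping reads and the annotation's release were not given in the sources used here, so opposite-strand overlaps cannot be separated. The members and lists were chosen with earlier results of these data known.

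The test was run in edgeR 4.0.16 (R 4.3.3, TMM factors, filterByExpr, quasi-likelihood F test, Benjamini-Hochberg over 16469 genes) on 8 libraries, with no covariate. SE is approximate (log2 fold change over root F). CPM is scaled by TMM factors, and TPM uses the deposited length. Alternatives used DESeq2 1.42.0 and limma 3.58.1. The biological coefficient of variation was 15.2%. In all 28 library pairs the counts differed beyond sampling noise. The fits were tested on simulated counts. Named members were the 10 most abundant, the 12 smallest p-values, those without overlap and those filtered out. Others, such as Cldn2, Crb3, Tjp1 and Marveld3, were named after their values were seen, as were Nphs1, Cldn5 and Marveld1. The result of 1 marker gene is not reported here. Of the other lists the 4 smallest p-values were named. Of the genes sought in all lists, 3 symbols were not found.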

Additional observations from a re-analysis of the deposited data

Results flagged for a closer look

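A library stood far from the other 3 of its group in 5 of 72 groups of 4 examined, by Dixon's criterion (a gap to the nearest library that takes up nearly the whole range); chance marks about 1 in 20 groups. In the library labelled Ptk7 cKO 2, Epcam stood at 297.9 CPM (the others 215 to 221), Cldn8 at 157 CPM (94.1 to 105) and Cldn3 at 66.6 CPM (42.5 to 46.5). Crb2 in control 3 stood at 10.1 CPM (10.8 to 10.9), a small gap in absolute terms. Ptk7 in the library labelled Ptk7 cKO 5 stood at 194 CPM (7.33 to 12.5).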

How the results depend on the processing

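Of 416 values (26 named genes under 16 alternatives), 404 kept their sign and side of the threshold, 6 gained a call and 6 changed sign. Because edgeR called no gene with all 8 libraries, no call could be lost. The 404 therefore do not measure how firm the differences are. The sign changes were F11r without the library labelled Ptk7 cKO 4 (leave-one-out range -0.086 to 0.0047), Cldn4 with the replicate block (-0.10) and Llgl1 with voom (-0.0085), with the replicate block (-0.013) and when control 3 or the library labelled Ptk7 cKO 4 was left out (leave-one-out range -0.0091 to 0.040). Over all genes, edgeR called 0, DESeq2 186 (183 without the library labelled Ptk7 cKO 5), edgeR with no filter 1, with the replicate block 7, and with 1 library left out 0 to 2. Of the 35 genes DESeq2 called 3, or 1 without that library, and of the other pathway genes 1 and 1. The count of lower genes at an unadjusted p, 11, ranged from 7 to 13 with 1 library left out, and was 15 with the replicate block; that of higher genes, 1, ranged from 1 to 2. Genes without overlap, 6 of 35 against 5.76% of all genes, ranged from 6 to 14 with 1 library left out, against 7.62% to 11.1% of all genes, with 10 without control 6 (10.6% of all genes) and 14 without the library labelled Ptk7 cKO 2 (9.04%). The log2 fold change of Ptk7 ranged from -4.42 to -1.46 with 1 library left out, and was -4.42 in DESeq2 without the library labelled Ptk7 cKO 5 and -4.67 with the replicate block. Only the numbers 1 and 4 occur in both groups; same-numbered libraries had residual correlations of -0.12 and 0.04, so the numbers were not taken as pairs. The cause of these dependences was not tested.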
